A study of Homo sapiens with 6 samples.

Results

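The protein kinase genes described here are the protein-coding rows whose annotation text, in the tables deposited by the authors, holds 1 of 3 phrases: protein serine/threonine kinase activity, protein tyrosine kinase activity or protein kinase activity. Rows annotated to cell division, the mitotic cell cycle, cell adhesion or G protein-coupled receptor signaling were left out, and so were STK3, TAOK3, ERBB3, EPHB2, PDK4, TRIB3 and CCND1. Of 106 rows with such a phrase, 33 were dropped this way and 73 of the 2128 genes of the table remained. A term for the catalytic activity itself was held by 55 of these members. The other 18 held only terms for the regulation or activation of a kinase, as inhibitors or activator subunits do. The name of the set therefore covers genes that are not kinases. Annotation cells of heavily annotated genes look cut short, which was not measured. The phrases did not reach 10 known kinases of the table, among them SRC, ABL1, EGFR and MTOR. CDK1, the kinase that drives entry into mitosis, stayed in because its listed terms hold none of the dropped phrases.

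Expression was measured by RNA-seq in SNU668, an established line of gastric signet-ring cell carcinoma, a stomach cancer whose cells hold a large mucin vacuole. The 3 control libraries are titled shControl, and their genotype is given as WT, so it is uncertain whether these cells carried a control hairpin. The 3 knockdown libraries are titled shGPER, for a short hairpin RNA against GPER1, which encodes a membrane receptor for estrogen that signals through G proteins. The labels state neither how many hairpins were used nor whether replicate libraries stem from separate cultures, and p-values then reflect library-to-library spread alone, which may be technical. Values are TPM, transcript abundances per length scaled to a common total, which keep no record of read depth. Means are given with the SD over the 3 libraries of a group.

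Protein kinases move a phosphate from ATP onto serine, threonine or tyrosine residues of other proteins, and so switch them on or off. Receptor tyrosine kinases read growth factors outside the cell and pass the signal through adaptors to cascades of cytoplasmic kinases, such as the MAP kinase and PI3K-AKT routes. Other branches read nutrients, energy or stress. In stomach cancers the receptor kinases MET and those for fibroblast growth factors are known drug targets.

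GPER1 checks the labels. The shControl libraries held 11.04, 11 and 10.41 TPM of it, the shGPER libraries 1.83, 2.41 and 2.47 TPM, and the groups did not overlap (exact two-sided permutation test, p = 0.1, which is the minimum for 3 libraries against 3). Among markers of the labelled cell type only 3 of 18 gastric epithelial genes were in the table, and CDH1 was below 1 TPM in every library. Of the other two, TFF1 fell from 5.10 ± 0.975 to 1.80 ± 1.38 TPM, and CDX2, not tested, stood at 0.30 to 0.47 and 0.82 to 1.39 TPM. Leukocyte markers (0 of 6 in the table) could not be read. Summed fibroblast markers (5 of 8 in the table) stood at 7.04 to 9.92 TPM in the controls and 31.9 to 33.3 TPM in the knockdown, a difference set by COL1A1 alone (2.06 to 3.79 and 28.8 to 30.1 TPM). DCN and LUM went the other way and fell, from 2.73 ± 0.656 to 1.36 ± 0.244 TPM and from 2.52 ± 0.344 to 1.20 ± 0.128 TPM. The endothelial marker CDH5 rose from 1.63 ± 0.286 to 7.29 ± 0.964 TPM, and ERG was not called. Summed neuroendocrine markers (4 of 7) stood at 6.82 to 7.41 and 64.2 to 65.3 TPM. Their part in the results below was not tested. In bulk RNA, a change in the number of cells of a kind and a change in RNA per cell cannot be told apart.

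Kinase genes moved in both directions in the knockdown libraries. Of the 73 members, 62 reached 1 TPM in 3 or more libraries and entered the limma test on log2(TPM + 1), with p-values adjusted over all 1651 tested genes. At an adjusted p under 0.05, 34 rose, 28 fell and 0 were left uncalled. This completeness is not particular to kinases: 98.4% of all tested genes were called, 47.8% rose and 50.6% fell. The 3 knockdown values lay wholly above or below the 3 control values for all 62 tested members and for 97.4% of all tested genes, so the deposited table itself holds few genes that did not separate the groups. How its genes were chosen is not stated. If differences between these same libraries chose them, the p-values here and below give no independent support. A change of at least 2-fold on this scale was found for 43 members, 27 up and 16 down, or 69.4%, against 56.1% of all tested genes. No test of the list as a whole was made.

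The members split into a risen and a fallen set with nothing between. No tested member had a log2 fold change within 0.5 of 0, and the smallest rises were those of DOK7 and CAMKV at 0.75. This gap is not shown to be particular to kinases, since the share of all tested genes within 0.5 of 0 was not counted. That 98.4% of them were called does not give the size of their changes. The median absolute change was 1.13 for members and 1.05 for all tested genes. The median over the 62 was 0.82, beside -0.49 over all tested genes, but it falls at the edge of this gap and depends on which low genes are tested, as the closing part shows. Members that rose had a median change of 1.17 and those that fell of -1.05, beside 1.13 and -0.99 for all genes. In 7 members that rose or fell, TESK2, SBK3, CDK18, ATP23, DOK7, RASSF2 and NPR2, all libraries of a group were under 1 TPM, so their direction was fixed by the filter. With these left out, the median was 0.75 for members and -0.69 for all genes.

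Risers came from low levels and fallers from high ones. The median mean level of risen members was 3.32 TPM in the controls and 10.3 TPM in the knockdown, that of fallen members 28.2 and 12.5 TPM. Because TPM are divided by transcript length, these levels can be compared between genes. A control mean under 5 TPM was found for 19 of the 34 risen members and for 3 of the 28 fallen ones. The 19 include TESK2, SBK3, CDK18, DOK7, RASSF2 and NPR2, and the 3 include ATP23, all with directions fixed by the filter. For these risers a low control level is built in, and neither counts nor medians of levels were taken without them. Over all tested genes the control medians were 2.61 TPM for risers and 16.2 TPM for fallers, the same order. Members with a catalytic term rose more often (27 of 46) than those with regulator terms only (7 of 16), a difference that was not tested. All members together summed to 1413 to 1436 TPM in the control libraries and to 1580 to 1818 TPM in the knockdown, while the sum of the whole table was lower in the knockdown (46584 to 49148 against 61181 to 64236 TPM). The higher sum depends on MKNK2 and ENSG00000275993, an entry similar to SIK1, picked from these values as the most abundant risers. Without them the members summed to 1282 to 1311 TPM in the controls and to 1087 to 1246 TPM in the knockdown. No abundant fallen member was left out alongside, so this choice itself lowers the knockdown sum, which cannot be set beside that of the table.

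**Figure D1:**
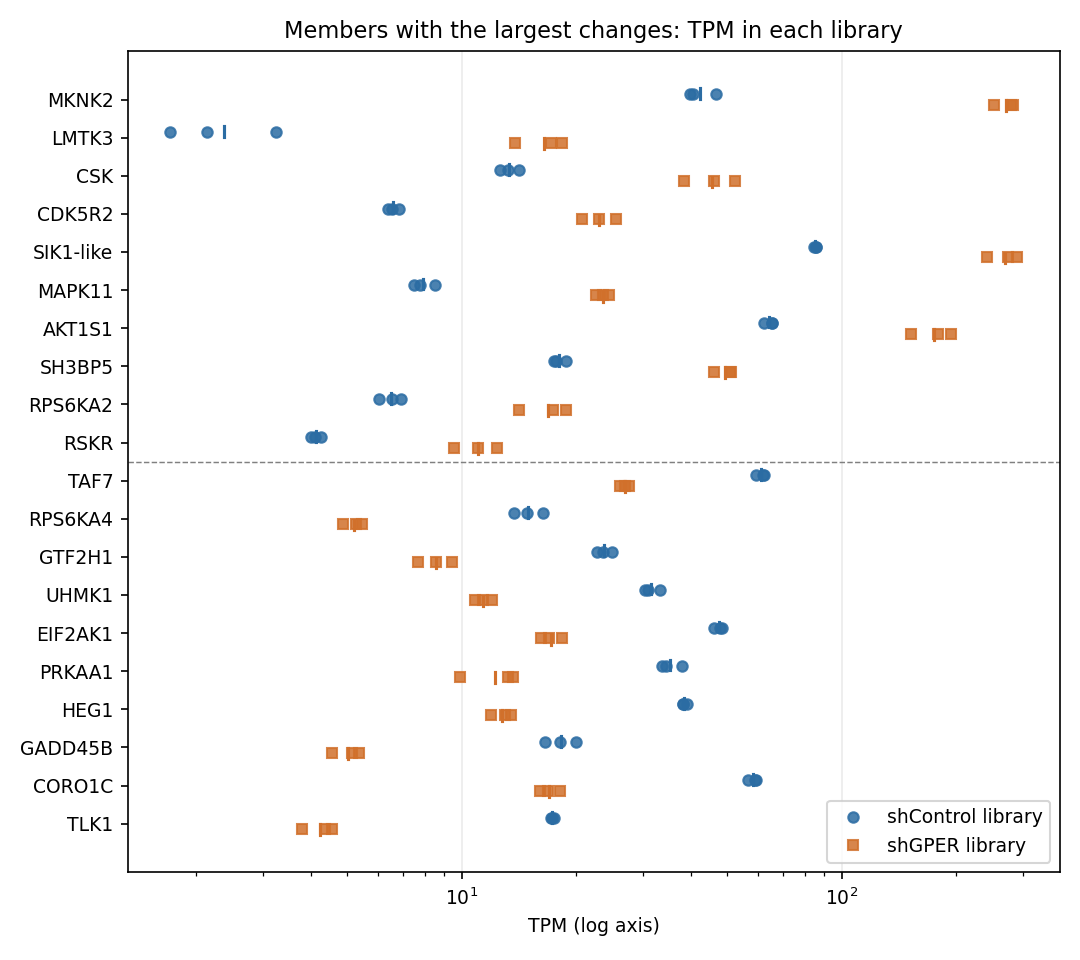
TPM on a log axis for the 10 members with the largest rise on the log2(TPM + 1) scale (above the dashed line) and the 10 with the largest fall, chosen among members whose mean reached 5 TPM in either group. Circles are the 3 shControl and squares the 3 shGPER libraries, with short vertical lines at the group means; the groups do not overlap in any of the 20 genes, and SIK1-like is the entry similar to SIK1.

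On the log2(TPM + 1) scale the largest rise was that of MKNK2 (ENSG00000099875; chromosome 19, 2037465 to 2051244, minus strand, GRCh38), which encodes MNK2. This serine/threonine kinase is switched on by the MAP kinases ERK and p38 and phosphorylates the cap-binding protein eIF4E. MKNK2 stood at 46.67, 40.66 and 39.8 TPM in the controls and at 251.54, 279.03 and 281.89 TPM in the knockdown. The lowest knockdown library was 5.39 times the highest control. Mean levels of 42.4 ± 3.74 and 271 ± 16.8 TPM (SD, n = 3 each) gave 2.65 as the log2 fold change (SE 0.08; adjusted p = 9.99e-08 in limma).

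LMTK3 (ENSG00000142235; chromosome 19, 48485271 to 48513935, minus strand) came next on this scale, but ahead of MKNK2 with a pseudocount of 0.1 (2.78 against 2.68) and as a ratio of mean TPM (6.95 against 6.39). It encodes lemur tail kinase 3, a membrane-bound kinase known as a regulator of estrogen receptor alpha in breast cancer. LMTK3 went from 1.71, 2.13 and 3.25 TPM to 13.78, 17.13 and 18.37 TPM (log2 fold change 2.39, SE 0.18; adjusted p = 3.62e-06 in limma). The knockdown libraries were all far above the controls, among which library 3 was the highest.

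The promoters of these genes are shown with that of UHMK1, which had the deepest fall among catalytic members of the plot of largest changes with a matched window free of exons, so that the searched letters can be seen. They do not stand for the members as a whole, whose promoter GC is given after them. Each sequence is the stretch of 250 bases directly upstream of the start in RefSeq's GRCh38.p14 annotation, on the strand of the gene, and overlaps no exon of GENCODE 29. Those of LMTK3 and UHMK1 lie inside the longer GENCODE gene spans, upstream of a later start. Capitals mark the letters GGGCGG (the GC box, bound by SP factors) and GGAATG (the core of TEAD sites, the factors that YAP binds), each searched on both strands, so that CCGCCC also marks a GC box. The CRE letters TGACGTCA were searched as well.
MKNK2, chr19:2051245-2051494, minus strand: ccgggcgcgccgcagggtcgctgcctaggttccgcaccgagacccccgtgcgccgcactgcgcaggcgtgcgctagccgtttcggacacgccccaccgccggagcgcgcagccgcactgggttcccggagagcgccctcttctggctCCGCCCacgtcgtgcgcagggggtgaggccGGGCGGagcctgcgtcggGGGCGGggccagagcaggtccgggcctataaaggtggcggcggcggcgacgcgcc
LMTK3, chr19:48511836-48512085, minus strand: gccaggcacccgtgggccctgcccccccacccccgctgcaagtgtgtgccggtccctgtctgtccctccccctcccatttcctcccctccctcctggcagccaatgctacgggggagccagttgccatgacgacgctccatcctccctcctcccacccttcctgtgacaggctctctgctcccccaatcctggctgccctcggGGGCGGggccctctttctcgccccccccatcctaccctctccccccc
UHMK1, chr1:162497555-162497804, plus strand: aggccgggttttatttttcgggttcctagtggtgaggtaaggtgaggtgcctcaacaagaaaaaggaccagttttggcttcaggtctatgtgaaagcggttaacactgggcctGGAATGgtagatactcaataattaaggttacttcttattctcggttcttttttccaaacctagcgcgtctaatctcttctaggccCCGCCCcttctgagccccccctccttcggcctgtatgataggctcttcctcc

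The MKNK2 window held 3 GC boxes and 39 CpG at 77.2% GC, that of LMTK3 held 1 and 9 at 70.4%, and that of UHMK1 held 1 and 8 at 48.8%. A TEAD core was found in the UHMK1 window only among these 3. A promoter was matched by symbol for 51 of the 62 tested members. A GC box stood in 22 of 28 risen and in 18 of 23 fallen members, beside 42.3% of all 27305 promoters. The TEAD core stood in 2 of 28 and 4 of 23, beside 11.9% of all promoters, and the CRE in 0 of both, beside 1.77%. Among all tested genes with a promoter, the GC box stood in 72.8% of risers and 66.5% of fallers, so the members lay closer to the other tested genes than to all promoters. Median promoter GC was 63.8% for risen and 68.4% for fallen members, beside 66.8% and 65.6% for risen and fallen tested genes and 58.0% for all promoters. A match describes letters and is no evidence of a bound site.

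Of the other kinases activated by MAP kinases, 1 rose and 1 fell. RPS6KA2, which encodes the ribosomal S6 kinase RSK3 downstream of ERK, went from 6.93, 6.05 and 6.55 TPM to 14.17, 17.4 and 18.85 TPM (log2 fold change 1.24, SE 0.11). RPS6KA4, which encodes MSK2, a nuclear kinase that phosphorylates CREB and histone H3, fell from 13.71, 16.32 and 14.87 TPM to 5.28, 5.47 and 4.86 TPM (log2 fold change -1.36, SE 0.09; adjusted p = 2.34e-06 in limma). Related kinases of this tier thus moved in opposite directions. In the MAP kinase tier itself both tested members rose. MAPK11, the p38 beta kinase, went from 8.52, 7.77 and 7.47 TPM to 22.48, 23.55 and 24.45 TPM (log2 fold change 1.46, SE 0.08; adjusted p = 7.45e-07 in limma). MAPK15, an atypical MAP kinase also called ERK8, stood at 2.28 to 3.03 TPM in the controls, and at 3.87 TPM in shGPER library 1 against 9.82 and 9.14 TPM in the other two.

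Further up, MAP4K3, which encodes the STE20 kinase GLK, fell from a mean of 8.66 ± 0.711 to 4.70 ± 0.539 TPM (log2 fold change -0.76, SE 0.11). TESK2, which phosphorylates the actin-severing protein cofilin, was at 0.34 to 0.74 TPM in the controls and at 1.17 to 2.79 TPM in the knockdown, a rise fixed in direction by the filter. Around these kinases, MAP kinase phosphatases and feedback inhibitors were listed as a pathway of 21 genes, of which 2 were tested and both rose, though DUSP8 turned below 0, uncalled, once the GC trend described further on was removed. DUSP16, a phosphatase of JNK and p38, went from 16.8 ± 1.60 to 36.6 ± 5.30 TPM, and DUSP8 from 0.753 ± 0.101 to 2.30 ± 0.161 TPM. The filter also fixed the direction of DUSP8. From the list of the MNK and eIF4E pathway, 2 of 15 genes were tested and both fell, EIF4G3 no longer called without the GC trend (-0.20, adjusted p = 0.0501 in limma). EIF4G2, a translation factor related to the MNK scaffold eIF4G1, stood at 263.87, 258.79 and 276.58 TPM and then at 130.3, 137.69 and 135.78 TPM, and EIF4G3 went from 19.5 ± 0.531 to 10.9 ± 0.996 TPM.

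**Figure D2:**
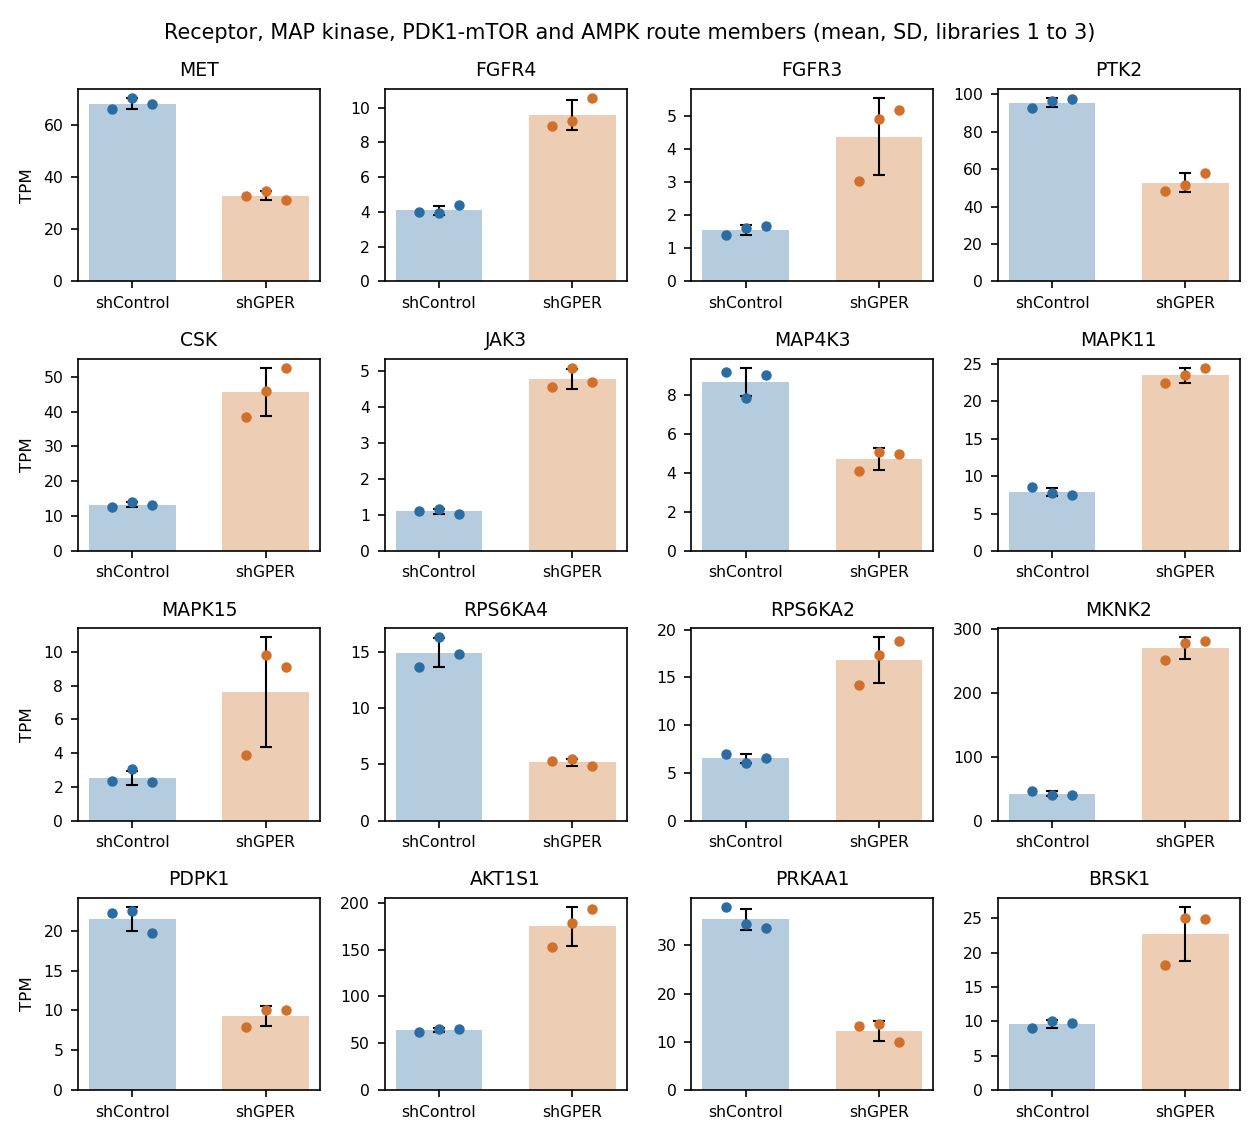
TPM (linear axes from 0) of 16 members on receptor, MAP kinase, mTOR and AMPK routes; bars are group means, whiskers the SD of 3 libraries, and points the libraries 1 to 3 from left to right. MET, PTK2, MAP4K3, RPS6KA4, PDPK1 and PRKAA1 fell and the other 10 genes rose, so that every route holds members of both directions in TPM as deposited.

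Among receptor tyrosine kinases, MET fell and the fibroblast growth factor receptors FGFR3 and FGFR4 rose. Without the GC trend MET stood at -0.23, still called, and FGFR3 and FGFR4 at 0.00 and 0.01, not called. MET, the receptor of hepatocyte growth factor, was abundant in the controls at 66.28, 70.25 and 67.9 TPM and stood at 32.76, 34.77 and 31.14 TPM in the knockdown, which is close to 48.3% of the control mean (log2 fold change -1.03, SE 0.06; adjusted p = 1.18e-06 in limma). FGFR4 went from 3.97, 3.93 and 4.38 TPM to 8.94, 9.24 and 10.55 TPM (log2 fold change 1.05, SE 0.10). FGFR3 stayed lower, at 1.39 to 1.67 TPM and then 3.04 to 5.18 TPM, with shGPER library 1 well below the other two. Even after the change MET remained the most abundant of the 3.

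The listed ligands of receptor tyrosine kinases numbered 50, of which 6 were tested, 4 rising and 2 falling, though without the GC trend FGF2 was near 0 and it and the rises of PGF (0.16), EFNA3 (0.18) and PDGFB (0.32) were no longer called. FGF2, a ligand of all fibroblast growth factor receptors, fell from 58.9 ± 2.78 to 31.3 ± 1.56 TPM, and PDGFA fell from 23.3 ± 1.41 to 14.4 ± 1.19 TPM. PGF, a ligand of the VEGF receptor FLT1, rose from 3.18 ± 0.166 to 8.52 ± 0.831 TPM, and the ephrin EFNA3 from 3.90 ± 0.530 to 9.88 ± 0.405 TPM. PDGFB, itself a member through its regulator terms, rose from 1.28 ± 0.512 to 4.29 ± 0.930 TPM (log2 fold change 1.22, SE 0.19). The 2 PDGF genes thus moved in opposite directions. Adaptors and RAS proteins behaved as unevenly, with 4 of 7 tested genes up and 3 down. DOK4, a docking protein of receptor kinases, rose from 17.3 ± 0.863 to 53.2 ± 3.76 TPM and SH2B1, an adaptor of JAK2 and the insulin receptor, from 10.3 ± 2.04 to 36.1 ± 2.89 TPM. PTPN11, the phosphatase SHP2 that links receptors to RAS, fell from 26.4 ± 0.971 to 10.8 ± 0.170 TPM.

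Of the 3 tested cytoplasmic tyrosine kinases, CSK and JAK3 rose and PTK2 fell. PTK2 was no longer called without the GC trend. CSK, which phosphorylates the inhibitory tail tyrosine of SRC family kinases, went from 12.58, 14.14 and 13.2 TPM to 38.52, 45.98 and 52.38 TPM (log2 fold change 1.70, SE 0.11; adjusted p = 1.82e-06 in limma). JAK3, which signals from cytokine receptors with the common gamma chain, rose from 1.10 ± 0.0651 to 4.79 ± 0.280 TPM (log2 fold change 1.46, SE 0.10). PTK2, the focal adhesion kinase FAK, fell from 92.99, 96.53 and 97.48 TPM to 48.45, 51.68 and 58.23 TPM (log2 fold change -0.85, SE 0.07). PTPN2, a phosphatase of JAK kinases and a member through its regulator terms, fell from 12.7 ± 1.39 to 5.27 ± 0.822 TPM. Outside the members, SRC, the substrate of CSK, was itself higher in the knockdown, at 2.96 ± 0.655 and then 6.67 ± 0.904 TPM. In all, 8 of the 10 kinases that the phrases missed were tested, of which 2 rose and 6 fell. The largest fall among them in log2 terms was that of PXK, and EGFR fell from 39.4 ± 0.940 to 13.6 ± 1.18 TPM.

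The PI3K-AKT and mTOR routes also held both directions. PDPK1, which encodes PDK1, the kinase that activates AKT and other AGC kinases, fell from 22.17, 22.47 and 19.72 TPM to 7.86, 10.04 and 10.02 TPM (log2 fold change -1.13, SE 0.11). This value is uncertain because 30.3% of the 31-base words of PDPK1 transcripts occur in other genes, mainly PDPK2P. AKT1S1, which encodes PRAS40, an AKT substrate that restrains mTOR complex activity, rose from 62.25, 65.37 and 65.37 TPM to 152.36, 178.73 and 193.26 TPM (log2 fold change 1.42, SE 0.09; adjusted p = 1.23e-06 in limma). Of the 29 listed regulators and substrates of PI3K and AKT, 5 were tested, AKT1S1 included, and 3 rose and 2 fell. PIK3R2, a regulatory subunit of PI3K, rose from 32.9 ± 5.32 to 118 ± 18.6 TPM while the related subunit PIK3R1 fell from 10.5 ± 1.04 to 5.22 ± 0.0462 TPM. Without the GC trend, however, PIK3R1 stood at 0.03 and was not called. RHEB, the small GTPase that activates mTOR complex 1, fell from 50.9 ± 2.77 to 22.3 ± 1.46 TPM. Of the 14-3-3 proteins, which bind phosphorylated kinase substrates, only YWHAZ was in the table, and it fell from 153 ± 7.80 to 39.8 ± 1.99 TPM.

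Other AGC kinases split evenly, 3 up and 3 down including PDPK1. The risers MAST1, MAST3 and PKN3 were no longer called without the GC trend. The microtubule-associated MAST1 and MAST3 rose from 1.19 ± 0.564 to 3.72 ± 0.458 TPM and from 1.67 ± 0.214 to 4.68 ± 0.137 TPM, whereas their relative MAST2 fell from 13.9 ± 1.32 to 7.16 ± 0.602 TPM. PKN3, a relative of protein kinase C, rose from 6.11 ± 0.753 to 14.6 ± 2.41 TPM. CDC42BPB, the Cdc42 effector MRCK beta that phosphorylates myosin light chain, fell from 28.96, 30.72 and 33.45 TPM to 17.85, 21.05 and 17.9 TPM. Anchors of PKA, the founding AGC kinase, gave 2 tested genes of 21 listed, and both AKAP9 and AKAP7 fell (log2 fold changes -0.69 and -0.66), though both turned above 0, uncalled, without the GC trend.

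In the AMPK family 3 of 4 members were tested: PRKAA1 fell, and BRSK1 and an entry similar to SIK1 rose. BRSK1 was no longer called without the GC trend. PRKAA1, the catalytic alpha-1 subunit of the energy sensor AMPK, went from 37.92, 34.42 and 33.68 TPM to 13.22, 13.64 and 9.91 TPM (log2 fold change -1.47, SE 0.12; adjusted p = 5.45e-06 in limma). BRSK1, a brain-enriched AMPK-related kinase, rose from 9.03, 10.1 and 9.82 TPM to 18.12, 24.95 and 24.94 TPM (log2 fold change 1.14, SE 0.13). The entry ENSG00000275993, described as similar to the salt-inducible kinase SIK1, was the most abundant riser next to MKNK2, at 84.48, 85.62 and 85.28 TPM and then 241.29, 273.68 and 289.72 TPM (log2 fold change 1.64, SE 0.07). It shares 96.3% of its 31-base words with SIK1, so reads of the pair cannot be told apart and the rise cannot be given to either copy.

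The kinases of the calcium and calmodulin group with enough signal, 4 in all, rose. STK40, a pseudokinase, went from 8.70 ± 0.136 to 21.3 ± 2.89 TPM and PSKH1, found at the Golgi and in the nucleus, from 7.56 ± 0.0781 to 16.9 ± 2.27 TPM. KALRN, an exchange factor for small GTPases with a kinase domain in its long form, and CAMKV, a pseudokinase of synapses, stayed low, with knockdown means of 3.16 ± 0.450 and 1.77 ± 0.251 TPM.

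Of cyclin-dependent kinases outside the dropped terms, CDK16 and CDK18 rose and CDK1 fell. Removal of the GC trend ended the calls of CDK18 and CDK1. CDK16, a kinase active with cyclin Y, went from 67.15, 65.21 and 61.8 TPM to 118.67, 137.46 and 142.16 TPM (log2 fold change 1.02, SE 0.08). CDK18 lay at 0.76 to 0.82 TPM and then at 2.06 to 4.56 TPM, its direction fixed by the filter. CDK1 fell from 122.21, 126.44 and 131.42 TPM to 69.38, 67.71 and 63.91 TPM (log2 fold change -0.91, SE 0.06; adjusted p = 1.36e-06 in limma). CDK5R2, the p39 activator of the neuronal kinase CDK5, rose from 6.55, 6.4 and 6.84 TPM to 20.73, 22.91 and 25.43 TPM (log2 fold change 1.66, SE 0.09).

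The kinases DYRK1B, HIPK3 and SRPK1 belong to 1 branch of the kinome and did not move together in TPM as deposited. With the GC trend removed, only SRPK1 was still called, at -0.20, beside 0.09 for DYRK1B and -0.11 for HIPK3. DYRK1B, known for holding cells in quiescence, rose from 9.72 ± 0.705 to 22.1 ± 2.11 TPM. HIPK3, a nuclear kinase that binds homeodomain proteins, fell from 40.1 ± 1.83 to 19.3 ± 1.52 TPM. SRPK1, which phosphorylates the serine- and arginine-rich splicing factors, fell from 34.95, 34.7 and 39.55 TPM to 16.7, 16.95 and 16.59 TPM (log2 fold change -1.07, SE 0.07).

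**Figure D3:**
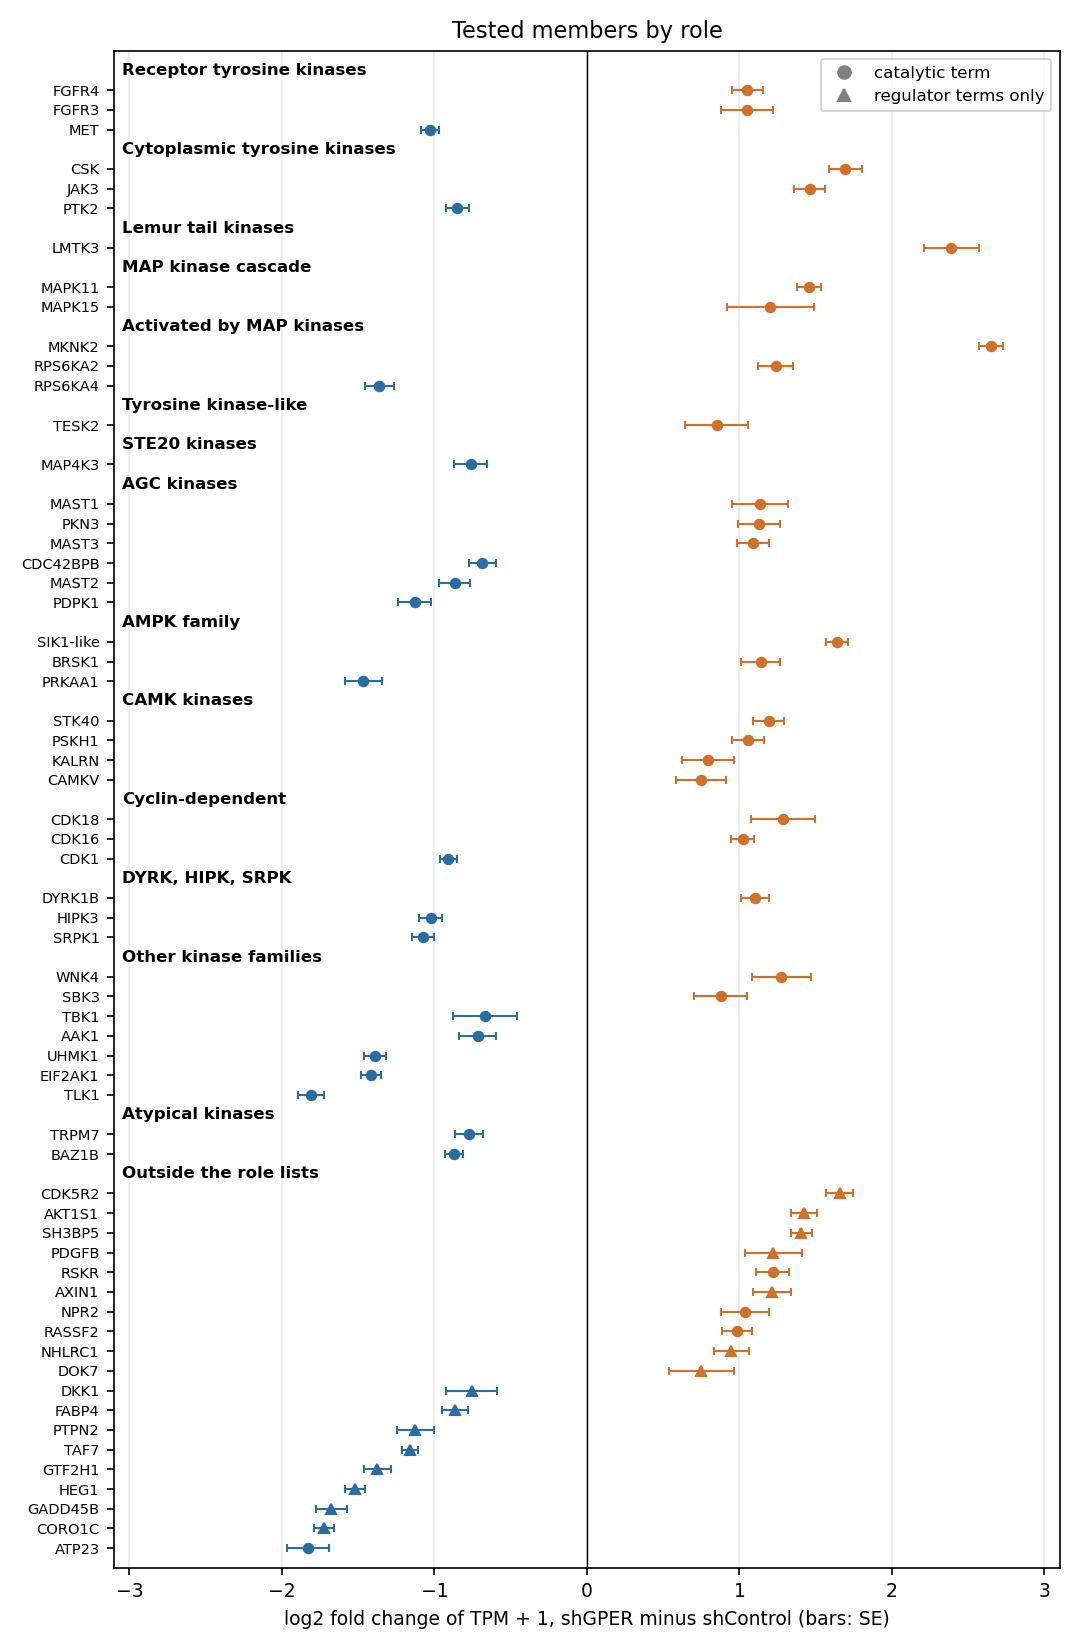
Log2 fold change of TPM + 1 (shGPER minus shControl, bars show the SE from limma) for all but 1 of the 62 tested members, ordered by role. Circles hold a catalytic term and triangles regulator terms only; the 34 risen members lie to the right of 0, the fallen ones to the left, and none within 0.5 of 0.

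Kinases outside the main branches of the family tree gave some of the deepest falls. TLK1, the tousled-like kinase that phosphorylates the histone chaperone ASF1, went from 17.22, 17.21 and 17.52 TPM to 3.8, 4.54 and 4.36 TPM, which left 24.4% of the control mean (log2 fold change -1.81, SE 0.09; adjusted p = 4.45e-07 in limma). EIF2AK1, the heme-regulated kinase HRI that slows translation through eIF2 alpha, fell from 46.07, 47.81 and 48.28 TPM to 16.13, 16.99 and 18.34 TPM (log2 fold change -1.42, SE 0.07). UHMK1, a kinase with an RNA-binding motif whose promoter is shown above, fell from 30.36, 30.84 and 33.26 TPM to 11.34, 12.01 and 10.85 TPM (log2 fold change -1.39, SE 0.07). In these 3 genes both groups were tight and far apart.

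AAK1, the kinase of the clathrin adaptor AP2, fell less, from 6.85 ± 0.827 to 3.77 ± 0.420 TPM. TBK1, which activates interferon regulatory factor 3, had the largest adjusted p of all tested members. It stood at 22.82, 19.89 and 19.91 TPM in the controls and at 12.36, 9.04 and 18.31 TPM in the knockdown, so that shGPER library 3 lay just under the controls (log2 fold change -0.67, SE 0.21; adjusted p = 0.0131 in limma). Quantile normalization ended this call, with a log2 fold change of -0.46. WNK4, a kinase of salt transport, rose from 0.843 ± 0.346 to 3.47 ± 0.930 TPM, and SBK3 reached 1.66 ± 0.310 TPM. The direction of SBK3 was fixed by the filter. Both tested atypical kinases fell, TRPM7 not so without the GC trend. BAZ1B, a chromatin protein that phosphorylates histone H2AX, went from 50.53, 49.87 and 50.25 TPM to 25.55, 27.43 and 28.16 TPM, and TRPM7, an ion channel fused to a kinase, from 25.3 ± 2.60 to 14.3 ± 0.786 TPM.

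Outside the role lists 20 members were tested, 10 up and 10 down. Of the fallen ones, ATP23, a mitochondrial protease annotated with the kinase term, dropped from 4.55, 4.58 and 4.36 TPM to 0.88, 0.41 and 0.4 TPM. Its direction was fixed by the filter. CORO1C, an actin-binding coronin, fell from 56.64, 59.35 and 59.21 TPM to 16.06, 18.11 and 16.84 TPM (log2 fold change -1.72, SE 0.07; adjusted p = 2.26e-07 in limma). GADD45B, a stress-induced activator of the kinase MAP3K4, fell from 16.52, 20.03 and 18.1 TPM to 4.54, 5.35 and 5.14 TPM (log2 fold change -1.68, SE 0.10). HEG1, a membrane protein that binds the junction protein KRIT1, fell to 33.2% of its control mean of 38.5 ± 0.488 TPM. GTF2H1, a subunit of the general transcription factor TFIIH, and TAF7, a subunit of TFIID, fell from 23.7 ± 1.07 to 8.54 ± 0.885 TPM and from 61.2 ± 1.56 to 26.8 ± 0.711 TPM.

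Among risers of this group, SH3BP5, a JNK-binding protein at mitochondria, went from 17.45, 17.64 and 18.82 TPM to 46.01, 50.8 and 51.03 TPM (log2 fold change 1.41, SE 0.07). RSKR, an S6 kinase-related kinase, went from 4.02, 4.12 and 4.27 TPM to 11.06, 9.52 and 12.41 TPM (log2 fold change 1.22, SE 0.11). Genes on the opposite strand overlap 47.5% of the exon bases of SH3BP5 and 23.2% of those of RSKR. The kit marks strand, but the sources used here do not say whether counting used it, so both values are uncertain. Smaller regulators completed the picture. AXIN1, the scaffold of the beta-catenin destruction complex, rose from 18.1 ± 1.45 to 43.8 ± 7.52 TPM, and the WNT inhibitor DKK1 fell from 3.1 ± 0.342 to 1.46 ± 0.520 TPM. FABP4, a fatty acid carrier, fell from 112 ± 5.28 to 61.1 ± 7.04 TPM. NHLRC1, the ubiquitin ligase malin, rose from a mean of 1.12 to 3.09 TPM. RASSF2, DOK7 and the natriuretic peptide receptor gene NPR2 went from 0.71, 0.61 and 0.62 to 2.38, 1.76 and 2.29 TPM. The filter fixed the direction of RASSF2, DOK7 and NPR2. AXIN1, DKK1, FABP4 and DOK7 were no longer called without the GC trend.

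The direction of a member followed the base composition of its transcripts. Risen members had a median transcript GC content of 61.0% and fallen members of 43.9%, close to the 59.6% and 44.3% of all risen and fallen genes. Below 45% GC, 0 of 15 tested members rose, and at 60% or above 21 of 22 rose, beside 9.27% and 89.5% of all tested genes in these ranges. The filter fixed the direction of ATP23 among these 15 and of SBK3, CDK18 and DOK7 among these 21. No counts were taken without them. RASSF2, its direction also fixed by the filter, was the single riser under 50% GC. CDC42BPB, PDPK1, GADD45B and RPS6KA4 fell at a GC content of 55.6 to 64.95%. Promoter GC, given above, did not separate the directions in this way. Some families that moved both ways differed in GC content in the same sense: MAST1 and MAST3 lie at 60.6% and 62.3%, and MAST2 at 52.8%. Yet from 50% to under 55% GC, 6 of 10 members rose. With the GC trend removed, as described next, MAST2 was still called as fallen, at -0.97 beside -0.87. For MET the value is 44.0%, and for FGFR3 and FGFR4 it is 63.8% each. RPS6KA2 and RPS6KA4 went the other way, with 56.1% for the riser and 64.95% for the faller.

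**Figure D4:**
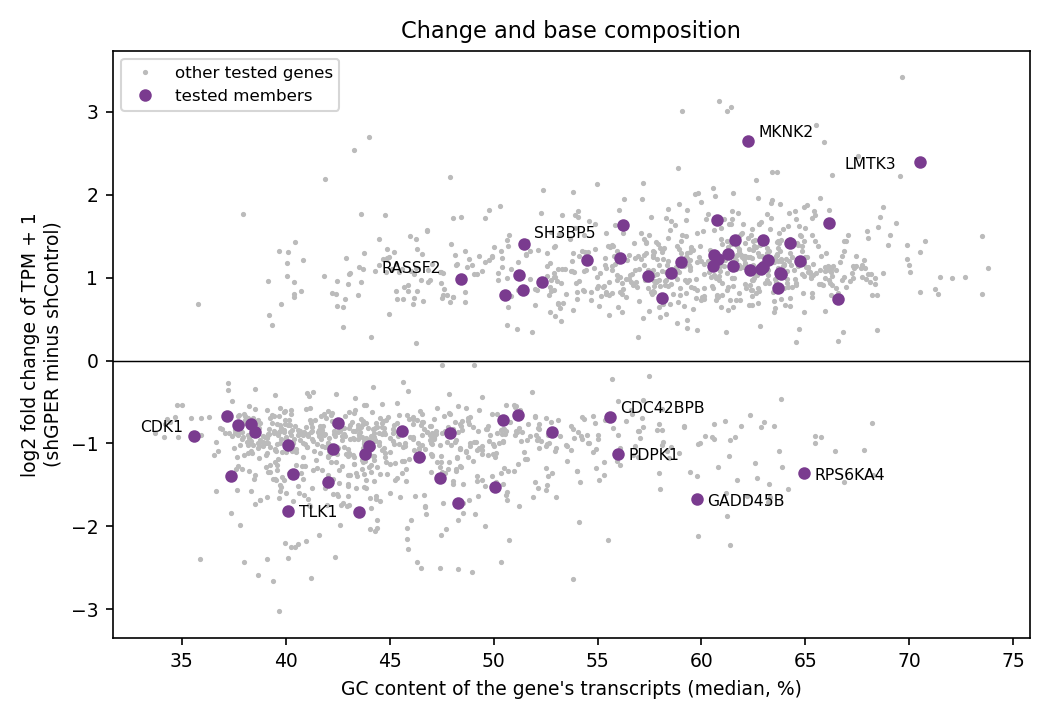
Log2 fold change of TPM + 1 (shGPER minus shControl) against the median GC content of each gene's transcripts, with the 62 tested members in purple over the other tested genes in grey. Members below 45% GC all lie under 0 and members at 60% or above lie over 0 except RPS6KA4; MKNK2 and LMTK3 stand at the top right.

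When each library's trend with GC content was removed with a spline, 19 of the 34 risen and 19 of the 28 fallen members kept call and direction, while 15 and 9 lost the call. Since nearly all genes of the table differ between the groups, this removal can also take out differences that are not bias, and which of them applies was not tested. MKNK2 kept the largest rise at 1.67, beside 2.65 without the removal. SH3BP5 stood at 1.48, LMTK3 at 1.27, ENSG00000275993 at 1.12 and CSK at 0.79. GADD45B and RPS6KA4 fell by more than before, with log2 fold changes of -2.52 and -2.44, and PDPK1 reached -1.62. TLK1 stood at -0.89, EIF2AK1 at -0.87, PRKAA1 at -0.59 and MET at -0.23, all still called. FGFR3, FGFR4, MAPK15, DYRK1B, PKN3, MAST1, MAST3, BRSK1 and AXIN1 were no longer called, with values of 0.00 to 0.24, and CDK18, WNK4, PDGFB and CAMKV also lost the call. Neither called were CDK1 at -0.01, HIPK3 at -0.11, PTK2 at -0.15 and PTPN2 at -0.32. MAP4K3, TRPM7, TBK1, FABP4 and DKK1, fallen before, turned above 0 without passing the test, and DOK7 and SBK3 turned below 0.

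**Figure D5:**
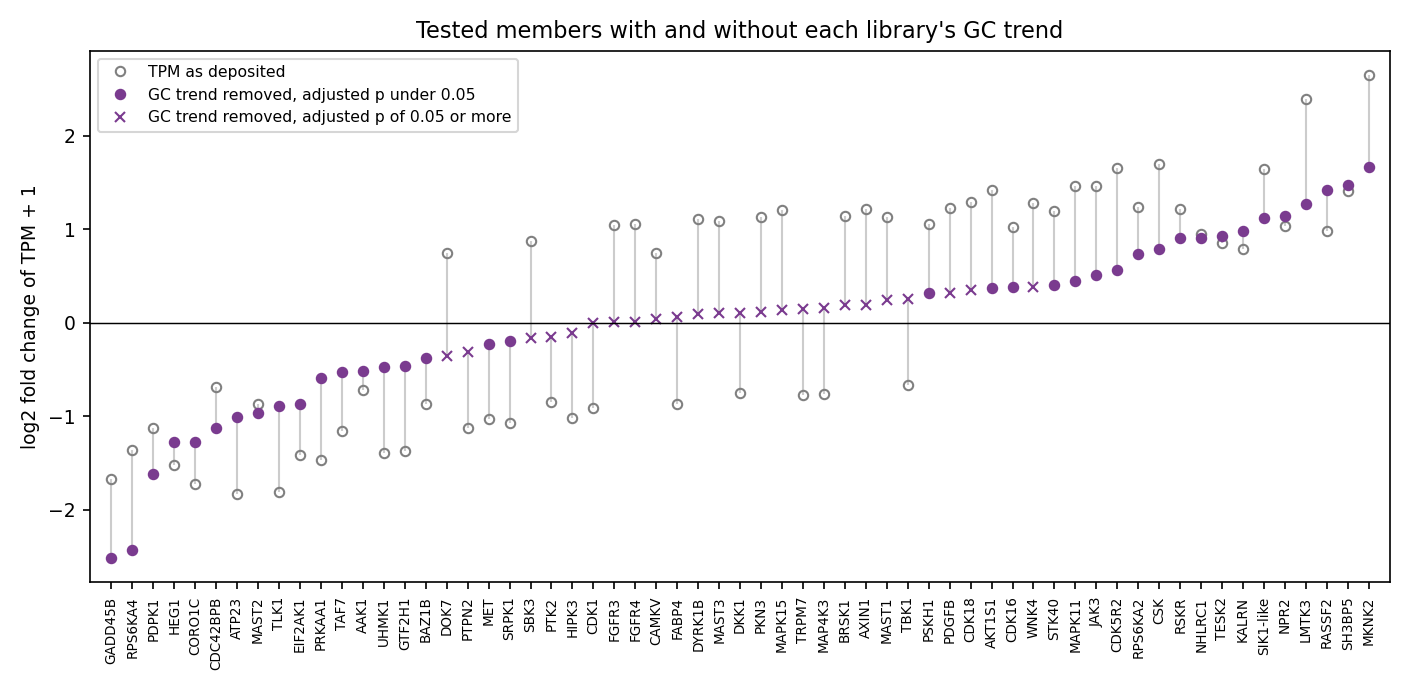
Log2 fold change of TPM + 1 for all but 1 of the 62 tested members with TPM as deposited (open circles) and after removal of each library's GC trend (filled where the adjusted p from limma stayed under 0.05, crosses otherwise), ordered by the latter. GADD45B and RPS6KA4 lie at the bottom at -2.52 and -2.44, MKNK2 at the top at 1.67, and 24 members are crosses.

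Libraries of the knockdown were not evenly placed. Among the 34 risen members, shGPER library 1 was the lowest of its group in 30 (88.2%) and library 3 the highest in 24 (70.6%). Over all risen genes these shares were lower, 71.6% and 58.6%, a difference that was not tested. Among the 28 fallen members library 1 was the lowest in 15 (53.6%) and library 2 the highest in 16 (57.1%), beside 42.1% and 41.9% of all fallen genes. The median coefficient of variation of tested members was 7.14% in the controls and 11.5% in the knockdown. Over all tested genes it was 8.42% and 11.2%, so a wider spread in the knockdown is not particular to the members. All 62 calls and directions were kept when each library was left out in turn.

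Chromosome 19 held 10 of the tested members, and 9 of them rose, all but GADD45B. Among all tested genes of this chromosome, 146 of 184 rose, or 79.3%. The 9 risers all had a transcript GC content of 60% or above, where 89.5% of all tested genes rose. The filter fixed the direction of SBK3 among them. Whether position plays a part was not tested. GADD45B starts at position 2476122, on the same arm as MKNK2, and moved the other way. Of the pathways annotated in the deposited tables, MAPK signaling held the most tested members, 10, of which 6 rose and 4 fell, and 23 of all 37 tested genes of that pathway rose. PI3K-Akt signaling held 9, of which 5 rose and 4 fell, while 14 of its 35 tested genes rose. Cellular senescence held 5, of which MAPK11 rose and 4 fell, as did 18 of its 21 tested genes.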

How the data were processed

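The 6 tables, 1 per library, were grouped by title (3 shControl, 3 shGPER). Total RNA went into a stranded mRNA library kit, per the labels' protocols. The authors deposited TPM per gene, for part of the genes (4.66 to 6.42% of the TPM total), with annotation terms. The sources used here do not say how these genes were chosen. Per the submitters' processing notes, HISAT2, RSEM and fastp were used with hg38. TPM divide by library total and transcript length, so depth is unknown and no count model, interval or detection limit applies.

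Expression as log2(TPM + 1) entered limma 3.58.1 under R 4.3.3 (intensity trend, no covariate) over 1651 genes with at least 1 TPM in at least 3 of 6 libraries, two-sided, adjusted after Benjamini and Hochberg over all of them, threshold 0.05. The fit was tested on simulated data. Fold changes on this scale understate changes of low genes. Tables were handled with Python 3.11.15 and pandas 2.3.3.

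Members were matched by text contained anywhere in the annotation cells. Members and lists were chosen with earlier results of these data known. Named are GPER1, MKNK2, LMTK3, the 10 largest rises and falls among members that reach a mean of 5 TPM in either group without overlap, all tested members of a role list of up to 6 and otherwise the 6 with the largest change, up to 4 genes per pathway list with the smallest p, and up to 6 untested members. TBK1, AXIN1, DKK1, FABP4, NHLRC1, RASSF2, DOK7, NPR2, the kinases outside the set and the chromosome 19 and pathway counts were named after their values were seen. The members left out of the summed TPM were also chosen this way. Values of 1 counted member are not reported here. A list of 11 kinase chaperones had no gene in the table, and the casein kinase list no tested member. Of the endothelial markers 2 of 7 were in the table.

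GC content (median over transcripts), positions, shared 31-base words and exon overlap come from GENCODE release 29 (GRCh38, also called hg38), which held 72 of the 73 members. Values with at least 20% shared words or antisense overlap were called uncertain. Promoters come from RefSeq. Alternatives were quantile normalization, median centring, pseudocounts of 0.5 and 0.1, a robust prior, no intensity trend, a filter of 5 TPM or none, a replicate block, removal of each library's GC trend (natural spline, 3 degrees of freedom), exact catalytic terms and leaving out each library. Dropping rows by exact terms only and leaving out uncertain members were added after the data were seen.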

Additional observations from a re-analysis of the deposited data

How the results depend on the processing

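The counts of members that rose and fell kept within 1.5 times under every alternative except 2. With a filter of 5 TPM, 18 of 43 tested members rose and 25 fell; removal of the GC trend left 19 and 19. Because no member lies near 0, the median log2 fold change of members (0.82) moved easily: 1.158 and 1.011 with pseudocounts of 0.1 and 0.5, 0.5417 without a filter, -0.7624 (reversed) with the filter of 5 TPM, which tests fewer low genes, 0.973 after median centring, 0.4178 after quantile normalization, 0.1053 without the GC trend and 0.9304 for catalytic terms alone. Without each library in turn it ranged from 0.7656 to 0.9252. Median centring shifted the median of all genes by 0.15, quantile normalization by 0.06 and GC removal by 0.49. Exact drop terms gave 38 rises and 36 falls among 74 members. Quantile normalization ended the calls of CAMKV, DOK7, TBK1 and TESK2, the cause of which was not tested.

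Without the GC trend 7 members changed sign, none of them called: DKK1 (0.1061), DOK7 (-0.3559), FABP4 (0.05752), MAP4K3 (0.1607), SBK3 (-0.1626), TBK1 (0.2488) and TRPM7 (0.148). So did the pathway genes AKAP7 (0.258), AKAP9 (0.2294), DUSP8 (-0.1518), FGF2 (0.02869) and PIK3R1 (0.03499). The other members that lost the call kept their sign. With the replicate number of the titles as a replicate block, 34 members rose, 28 fell and the median was 0.8203, so no call changed. Deviations of same-numbered libraries had correlations of 0.03, -0.09 and 0.01, so the numbers were not taken to pair the samples. Depth is unknown, which limits what can be read from members near 1 TPM.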

Other observations

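The 11 members below the filter were low in both groups. EPM2A, the phosphatase laforin that acts with malin on glycogen, stood at 0.74 to 1.23 TPM in the controls and 0.45 to 1.20 TPM in the knockdown, and the groups overlapped, although NHLRC1, which encodes malin, rose. PAK6, an effector of Cdc42, stood at 0.17 to 0.31 TPM and then at 1.64, 1.42 and 0.32 TPM; 39.1% of its 31-base words occur in other genes. CAMK2B, a calcium and calmodulin kinase of neurons, stood at 0.05 to 0.27 and 0.51 to 1.06 TPM. STK31 reached 1.05 TPM in shGPER library 2 alone and SPDYE14 reached at most 0.91 TPM. ALK, a receptor kinase, stood at 0.08 to 0.16 and 0.29 to 0.38 TPM. The 5 others, MARK1, SBK1, DCLK1, TTBK1 and NTRK2, had group means under 0.3 TPM.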
